A study of Homo sapiens with 8 samples.

Results

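Cells that carried the sample barcode SBO07 were compared with cells that carried SBO09, SBO10 or SBO11, all sequenced in the same pair of single-cell libraries (libraries 3 and 4). The cells were HMLE, an established line of immortalised human mammary epithelial cells used as a model of the epithelial-to-mesenchymal transition (EMT). The series set out to follow EMT driven by TGF-β, with and without pyridostatin, a small molecule that binds G-quadruplex structures in nucleic acids. Each of 12 samples was tagged with its own short barcode oligonucleotide (SBO), and the tagged samples were pooled before they were loaded on the 10x Genomics instrument for sequencing from the 5′ end of transcripts. The labels used here state for no barcode which treatment, dose or time its sample had, nor whether any of the barcodes mark repeat cultures. SBO07, SBO09, SBO10 and SBO11 are therefore treated as 4 samples of unknown condition that share the cell line and the libraries. SBO07 to SBO12 were the barcodes found in libraries 3 and 4, and SBO01 to SBO06 those found in libraries 1 and 2.

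SBO07 was found in 804 cells, 430 of library 3 and 374 of library 4, out of 9429 kept cells in these libraries and 22147 in the whole series. SBO09 marked 654 cells, SBO10 462 and SBO11 368. A kept cell had at least 1000 detected genes and at most 15% of its unique molecular identifiers (UMIs, 1 per captured RNA molecule) from the mitochondrial genome. Barcodes were called in each library alone with HTODemux, which gave 4621 cells with 1 barcode, 2000 with more than 1 and 2808 with none in both libraries together. A called cell was used only where the called barcode also had the highest barcode count, which left out 28 of 832 cells called SBO07 and 157 of 525 called SBO11. In SBO07 cells the median count of their own barcode was 354 in library 3 and 419 in library 4, against 41 and 47 for the next barcode.

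The barcodes themselves are shown because the whole comparison rests on telling them apart by sequence. Each is 15 bases long, and the lines that follow give them 5′ to 3′ as they stand in the deposited barcode tables.
SBO07: CGAGGTACATCTTGT
SBO09: TTAGGTGTACACGTT
SBO10: GCATTGCGTCAGGCT
SBO11: CTGGTCGAACTTCGT
SBO07 differs from SBO09 at 9 positions, from SBO10 at 13 and from SBO11 at 9, so a single misread base turns none of them into another.

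Type I and type III interferons are secreted proteins that cells make after they sense foreign or misplaced nucleic acid. They bind surface receptors, whose kinases JAK1 and TYK2 phosphorylate transcription factors such as STAT2. These join IRF9 and switch on a broad set of interferon-stimulated genes through a DNA element called the interferon-stimulated response element (ISRE). The products block virus entry, translation and replication, raise antigen presentation and damp the signal again. Epithelial cells, mammary ones included, respond to both interferon types.

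UMIs were summed over the cells of each barcode in each library, which gave 8 sums of 6330913 to 15023345 UMIs, and levels are given as CPM, UMIs of a gene scaled to the total of the sum in the usual way. Each barcode marks 1 sample seen in 2 libraries, so every p-value given here measures only the spread between 2 libraries, which may be technical, and not the spread between cultures. Median UMIs per cell in SBO07 were 30832 in library 3 and 40584.5 in library 4, against 29819.5 to 32204.5 and 39351 to 39850 in the other 3 barcodes. The median mitochondrial share in SBO07 was 1.60% and 1.38%, with 1.64% to 1.72% and 1.54% to 1.62% in the others. Libraries 3 and 4 had 128 cell barcodes in common, 6 and 13 of them counted among the SBO07 cells of the respective library. The epithelial surface protein EPCAM had 344 to 369 CPM in the 8 sums, and the basal keratin KRT5 had 499 to 665 CPM. Leukocyte markers were low, and CD3E and TYROBP had no UMI in the 8 sums. The summed level of all 8 markers was 14.96 to 18.2 CPM, with 17.4 and 16.4 CPM in SBO07. CD68 made up most of it, with 15.1 and 13.4 CPM in SBO07 and 11.02 to 14.4 CPM in the other 6 sums. CD14 had 2.04 to 4.35 CPM in the 8 sums. The 7 endothelial markers summed to 0.985 to 2.84 CPM, and the 8 fibroblast markers to 70.9 to 86.5 CPM, with 79.6 and 85.7 CPM in SBO07.

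Interferon-stimulated genes were higher in SBO07 than in SBO09, SBO10 and SBO11. They were high in SBO08 as well, which lies outside the comparison and had 375 and 359 CPM of IFI27. IFI27, an interferon-induced mitochondrial and membrane protein, was 6.25-fold higher than the mean of the other 3 barcodes, and MX1, a GTPase that traps viral nucleoproteins, was 4.28-fold higher. Of 50 interferon-stimulated effectors, 48 were higher and 2 were not called, with a median log2 difference of 1.23. Most other gene groups of the cell, among them epithelial adhesion genes, had small median differences, though many had some members called. None of the interferon receptors or G-quadruplex binding proteins passed the test, and few of all genes did (4.22% higher and 3.38% lower). The test was the quasi-likelihood test of edgeR, blocked on library, with p-values adjusted by the Benjamini-Hochberg method over 13634 genes.

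Against the mean of SBO09, SBO10 and SBO11, 576 genes (4.22% of those tested) were higher in SBO07 and 461 (3.38%) were lower at an adjusted p under 0.05, and the median log2 difference over all genes was 0.0046. These totals depend on the fit, with 314 higher and 192 lower without the block, 164 and 158 in DESeq2, and 222 and 198 when each cell was thinned to 10000 UMIs. SBO07 was higher than SBO09 for 507 genes (3.72%) and lower for 440 (3.23%). Against SBO10 the counts were 447 higher (3.28%) and 563 lower (4.13%). Against SBO11 they were 325 higher (2.38%) and 211 lower (1.55%).

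IFI27 had 588 and 580.5 CPM in SBO07 (libraries 3 and 4), 67.1 and 78.2 in SBO09, 100.8 and 73.6 in SBO10, and 128 and 119.6 in SBO11. Both SBO07 sums were above all 6 others, SBO11 was the highest of the remaining barcodes, and SBO09 and SBO10 overlapped. The log2 difference from the mean was 2.64 ± 0.05 (SE, edgeR adjusted p = 1.975e-22), and it was 3.00 against SBO09, 2.69 against SBO10 and 2.24 against SBO11. IFI27 lies at chr14:94104836-94116698 on the plus strand of hg38. MX1 had 467 and 396 CPM in SBO07, 69.6 and 82.9 in SBO09, 89.4 and 80.3 in SBO10, and 166 and 138 in SBO11. Here too the SBO07 sums lay above all others, and SBO11 lay above SBO09 and SBO10 in both libraries. The log2 difference from the mean was 2.10 ± 0.05 (SE, edgeR adjusted p = 1.024e-20), and 2.49, 2.29 and 1.504 against SBO09, SBO10 and SBO11. MX1 lies at chr21:41420304-41459214 on the plus strand.

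**Figure D1:**
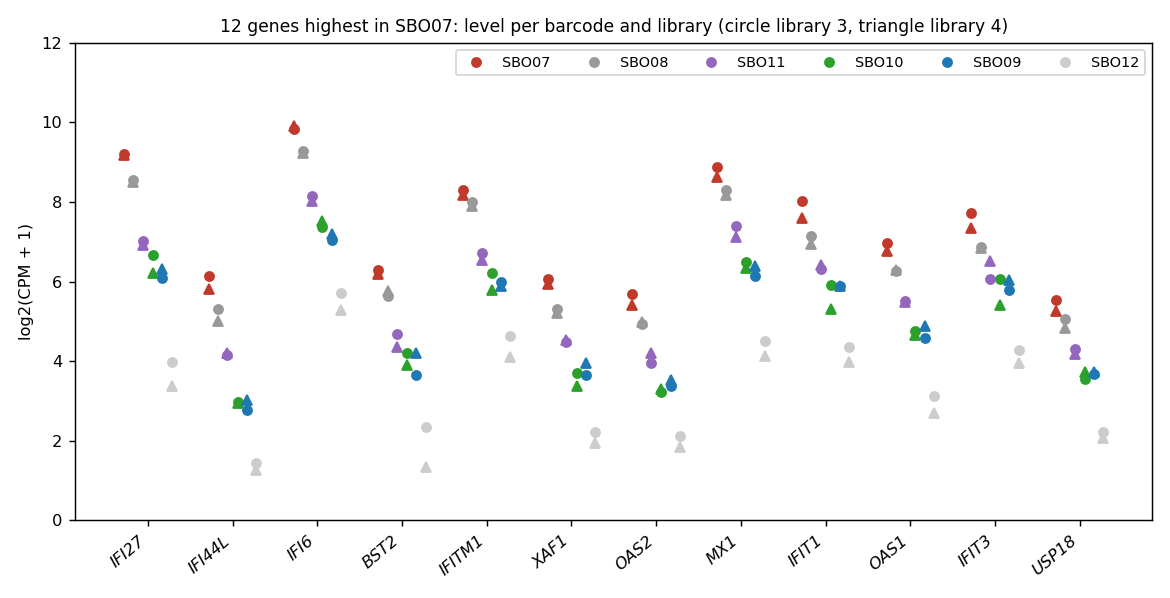
Levels, as log2(CPM + 1), of the 12 genes of SBO07 farthest from the nearest compared barcode, with 1 point per barcode and library sum (circle library 3, triangle library 4). For every gene both SBO07 points lie above every point of SBO09, SBO10 and SBO11. SBO08 and SBO12, which are outside the main fit, are drawn in grey.

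The same order held within single cells. After thinning every cell to 10000 UMIs, IFI27 was seen in 81.1% of 758 SBO07 cells (exact 95% binomial interval 78.2% to 83.9%), 19.0% of SBO09 cells, 25.4% of SBO10 cells and 35.7% of SBO11 cells. The lowest share among the 6 barcodes of these libraries, 5.05% in SBO12, is given as a rough guide to what free RNA could give. SBO12 cells had the lowest median own barcode counts, 71 and 83 in libraries 3 and 4, against 38.5 and 45 for the next barcode. The condition of SBO12 is unknown, and its own expression was not told apart from free RNA. MX1 was seen in 83.1% of SBO07 cells (80.3% to 85.7%), against 29.7%, 30.8% and 50% in SBO09, SBO10 and SBO11 and 13.8% in SBO12. Without thinning the SBO07 shares were 88.2% for IFI27 and 92.3% for MX1 at a median of 34674 UMIs, and the SBO12 shares 12.8% and 33.3% at 36345. Intervals cover counting error only.

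Most SBO07 cells carried more effector transcripts than a typical cell of the other barcodes, with the 50 effectors summed. An SBO07 cell had a median of 73 effector UMIs per 10000, and the 10th and 90th percentiles were 35 and 149.6. The medians were 27 in SBO09, 26 in SBO10 and 34 in SBO11. Of the SBO07 cells, 92.7% lay above 28 UMIs, the median of the cells of the other 3 barcodes, and 50.5% lay above 72.9 UMIs, their 90th percentile. Some cells of the other barcodes also reached high values, with 7.66% of SBO09, 9.44% of SBO10 and 15.1% of SBO11 cells above that 90th percentile. The distributions over cells therefore overlapped between barcodes.

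**Figure D2:**
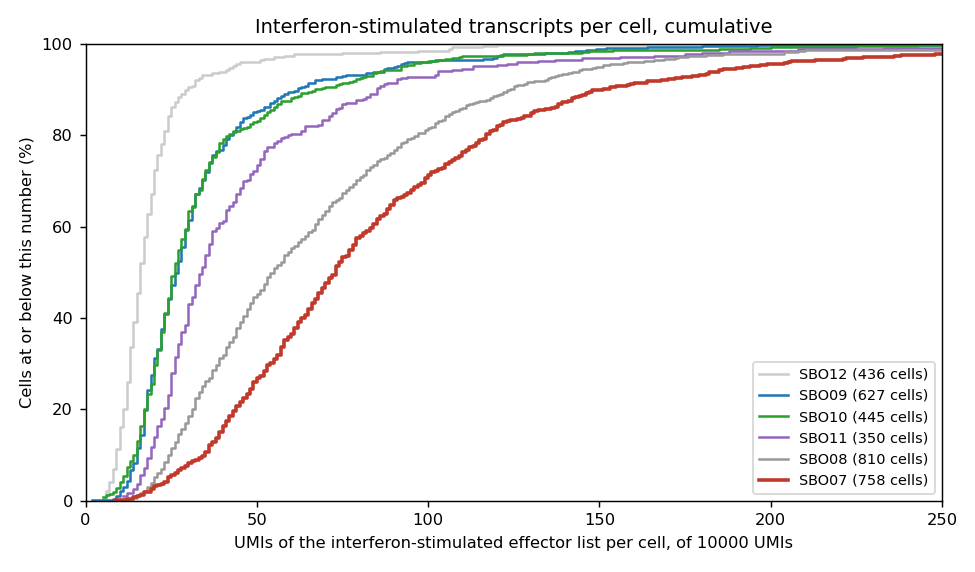
Cumulative share of cells (%) at or below each number of effector UMIs per cell, after thinning to 10000 UMIs, by barcode. The median is 73 UMIs in SBO07 and 26 to 34 in SBO09, SBO10 and SBO11, and SBO08 and SBO12 are drawn in grey.

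Ligand transcripts were rare. IFNB1, the type I interferon of epithelial cells and fibroblasts, gave 13 UMIs in SBO07, 6 in library 3 and 7 in library 4, which came from 3 cells. None was found among 51946129 UMIs of SBO09, SBO10 and SBO11. The SBO07 level was 8.11-fold a floor of 3 UMIs over those 3 barcodes together. That floor treats UMIs as independent, but the 13 UMIs came from 3 cells, so no minimum fold can be drawn. IFNL1, a type III interferon, gave 16 and 67 UMIs in SBO07 from 14 cells, 58 of them in 1 cell. SBO09, SBO10 and SBO11 together gave 92 UMIs from 15 cells. The IFNL1 difference (log2 1.26, edgeR adjusted p = 0.02386) passed the test against the mean, but it was a difference from SBO10 (3.35), with 0.20 against SBO09 and 0.25 against SBO11, neither called. It was 0.22 and not called without SBO10, 0.42 and not called with thinned cells, not called without the block, and -0.41 when cell barcodes found in both libraries were left out. IFNL2 gave 3 UMIs and IFNL3 gave 2 in SBO07, and IFNA1 and IFNG gave none in any of the 4 barcodes. SBO08, outside the comparison, gave 84 UMIs of IFNB1 and 200 of IFNL1, and SBO12 gave 7 of IFNB1. Cells without a single called barcode were not counted here.

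The 6 receptor genes differed from the mean by log2 values of -0.09 to 0.10. By edgeR 0 of 6 receptor genes were called, 0 had an unadjusted p under 0.05, and DESeq2 also called 0. Of all genes, edgeR called 4.22% higher and 3.38% lower, so for 6 genes a count of 0 is near the share over all genes. IFNAR1, a chain of the type I receptor, had 40.7 and 40.3 CPM in SBO07 and 33.2 to 45.7 CPM in the other 6 sums, a log2 difference of 0.02 (edgeR adjusted p = 0.908). IFNGR2, a chain of the interferon-γ receptor, differed by 0.07 (edgeR adjusted p = 0.5412). IFNLR1, the specific chain of the type III receptor, differed by 0.10 (edgeR adjusted p = 0.781). These values leave the groups overlapping.

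Among 11 signal transducers 6 were higher in SBO07 (against 4.22% of all genes), and the median log2 difference was 0.22. STAT2 and IRF9, which act together at the ISRE, rose by log2 differences of 1.03 and 1.10. IRF9, the DNA-binding part, had 79.9 and 73.5 CPM in SBO07, 32.1 and 34.0 in SBO09, 27.1 and 28.98 in SBO10, and 52.3 and 42.8 in SBO11. IRF7, the factor that amplifies interferon production, was at 101 and 98.8 CPM in SBO07 and 39.5 to 59.9 CPM in the others (log2 difference 1.04). TYK2 (0.33) and IRF3 (0.22) rose less, and JAK1 (0.04) and IRF1 (0.06) did not pass the test. DESeq2 called 4 of the 11.

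Of 10 nucleic acid sensors and adaptors tested, 5 were higher (4.22% of all genes were) and the median log2 difference was 0.48. The RNA sensors IFIH1 (MDA5), DDX58 (RIG-I) and DHX58 (LGP2) rose by 1.08, 1.07 and 1.19, the DNA sensor IFI16 by 1.17 and the RNA-editing enzyme ADAR by 0.49. IFI16 had 65.3 and 53.4 CPM in SBO07 against 20.8 to 28.4 CPM in the other 6 sums, and its SBO11 sums of 28.2 and 25.4 CPM overlapped those of SBO09. TLR3, MAVS, CGAS, TMEM173 (STING) and TBK1 were not called, with log2 differences of 0.11 to 0.48. DESeq2 called 5 of the 10, and 164 of all 13634 genes, higher.

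Of 50 interferon-stimulated effectors, 48 were higher in SBO07 than the mean of the other 3, against 4.22% of all genes. The counts were 47 against SBO09 (median log2 difference 1.33), 49 against SBO10 (1.37) and 44 against SBO11 (0.93). LY6E and GBP2 were the 2 members not called. The largest difference among members with at least 20 CPM was that of IFI44L, a gene of poorly known function, with 69.5 and 55.05 CPM in SBO07, 5.88 and 7.09 in SBO09, 6.92 and 6.75 in SBO10, and 16.9 and 17.4 in SBO11 (log2 difference 2.75 ± 0.08, SE, edgeR adjusted p = 2.067e-18). IFI6, an inhibitor of apoptosis and of flavivirus replication, had 917 and 957 CPM in SBO07, 131 and 145 in SBO09, 165 and 183 in SBO10, and 285 and 258 in SBO11. The groups did not overlap for either gene, and IFI6 had the smallest adjusted p of these (log2 difference 2.31 ± 0.03, SE, edgeR adjusted p = 9.076e-25).

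BST2 (tetherin), which holds budding virions at the cell surface, had 76.98 and 71.4 CPM in SBO07, 11.6 and 17.5 in SBO09, 17.5 and 13.9 in SBO10, and 24.6 and 19.6 in SBO11. IFITM1, which hinders fusion of viral and cell membranes, had 316 and 287 CPM in SBO07, 62.03 and 58.3 in SBO09, 73.8 and 53.9 in SBO10, and 104 and 92.2 in SBO11. Their log2 differences were 2.09 and 2.04. IFITM1 shares much of its sequence with IFITM2 and IFITM3, so some of its reads could be assigned between them.

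IFIT1, which binds RNA without a host cap, had 261 and 193 CPM in SBO07, 57.9 and 57.8 in SBO09, 58.8 and 39.0 in SBO10, and 78.9 and 84.3 in SBO11. OAS1 and OAS2, which make the oligoadenylate that activates RNase L, rose by 1.91 and 2.03. IFIT3, a partner of IFIT1, rose by 1.53, and XAF1, a pro-apoptotic factor, by 2.10. CXCL10, a chemokine that draws T cells, was singled out after its values were seen, since it had the largest log2 difference from the mean on the list, 3.25 (edgeR adjusted p = 1.61e-12). It had 12.7 and 12.8 CPM in SBO07, 0.341 and 0.438 in SBO09, 0.922 and 0.141 in SBO10, and 10.6 and 9.48 in SBO11. The difference was thus one from SBO09 and SBO10, and against SBO11 it was 0.35 and not called (edgeR adjusted p = 0.3101).

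Of 6 feedback inhibitors, USP18 and TRIM21 were higher (4.22% of all genes were). DESeq2 called 1 of the 6 higher, and so did edgeR on thinned cells. USP18, the protease that removes ISG15 from proteins and blocks the type I receptor, had 45.2 and 37.6 CPM in SBO07, 11.8 and 12.3 in SBO09, 10.8 and 12.2 in SBO10, and 18.7 and 17.1 in SBO11 (log2 difference 1.59). TRIM21 rose by 0.52. ISG15 itself, the ubiquitin-like protein that USP18 acts on, had 566 and 541 CPM in SBO07, 192 and 193 in SBO09, 197 and 189 in SBO10, and 289 and 288 in SBO11 (log2 difference 1.31). SOCS1, SOCS3, PIAS1 and PTPN2 were not called, with log2 differences of 0.17, -0.26, 0.04 and -0.12.

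**Figure D3:**
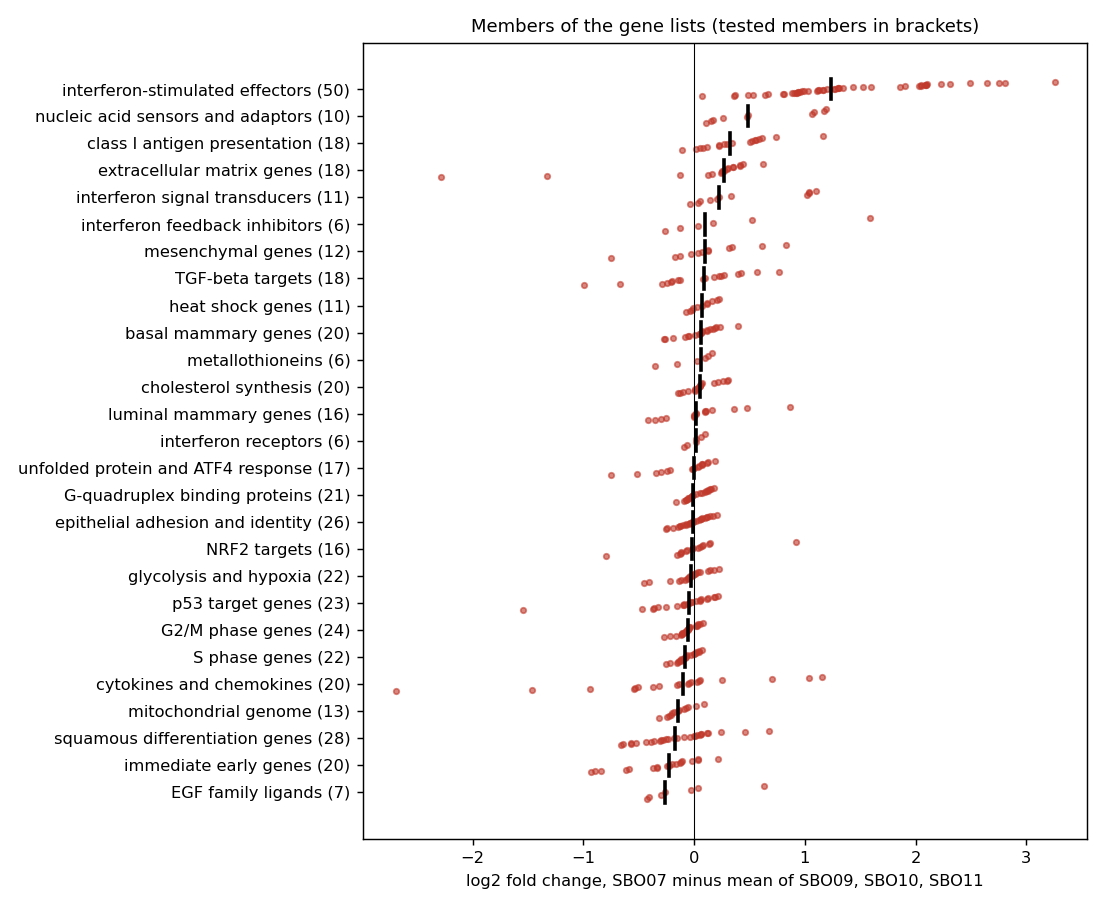
Log2 difference of SBO07 from the mean of SBO09, SBO10 and SBO11 for each tested member of the gene lists with at least 5 members tested, with 1 point per gene and a bar at the median. The effector median is 1.23, and that of the receptors is 0.02.

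Antigen presentation rose by less. Of 18 genes of the class I pathway 13 were higher in SBO07 (4.22% of all genes were), with a median of 0.32. HLA-B had 709 and 709 CPM in SBO07, 240 and 302 in SBO09, 280.4 and 348 in SBO10, and 397 and 320 in SBO11 (log2 difference 1.17). HLA-F (0.74) and HLA-C (0.62) rose too, but reads of genes this alike can be assigned between copies and depend on the line's alleles. B2M, the light chain that all class I molecules share, had 2570 and 2528 CPM in SBO07 and 1615 to 1984 CPM in the others, a log2 difference of 0.55. TAP1, which carries peptides into the endoplasmic reticulum, and PSMB8 and PSMB9, subunits of the immunoproteasome, rose by 0.52, 0.50 and 0.56. PSMB10, another such subunit, differed by 0.02 and was not called.

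A stricter set was formed of genes with an adjusted p under 0.05, a mean of at least 20 CPM, and at least 0.5 log2 between SBO07 and the nearest of the 3 other barcodes. It held 57 higher genes (0.418% of all tested, 0.967% of the 5894 with enough CPM) and 3 lower genes (0.022% and 0.0509%). The set is defined by the same values that describe it, so no test is given for it. Just inside the limit were HLA-C (0.51 from the nearest barcode), TRIM14 (0.52) and EIF2AK2 (0.52), and among those just outside were OASL (0.48) and IFIT5 (0.48). Of the 57, 43 were on the interferon and antigen presentation lists, which were chosen with earlier results of these data known. Of the 13634 tested genes, 50 were effectors and 18 were class I genes. The other interferon lists held 11 transducers, 10 sensors and adaptors, 6 receptors, 6 feedback inhibitors and 1 ligand. The nearest other barcode was SBO11 for 53 of the 57, as for IFI27 and MX1. How often SBO11 was nearest among all tested genes was not counted. Without SBO11 the set held 73 higher and 14 lower genes, and without SBO10 it held 8 lower genes.

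**Figure D4:**
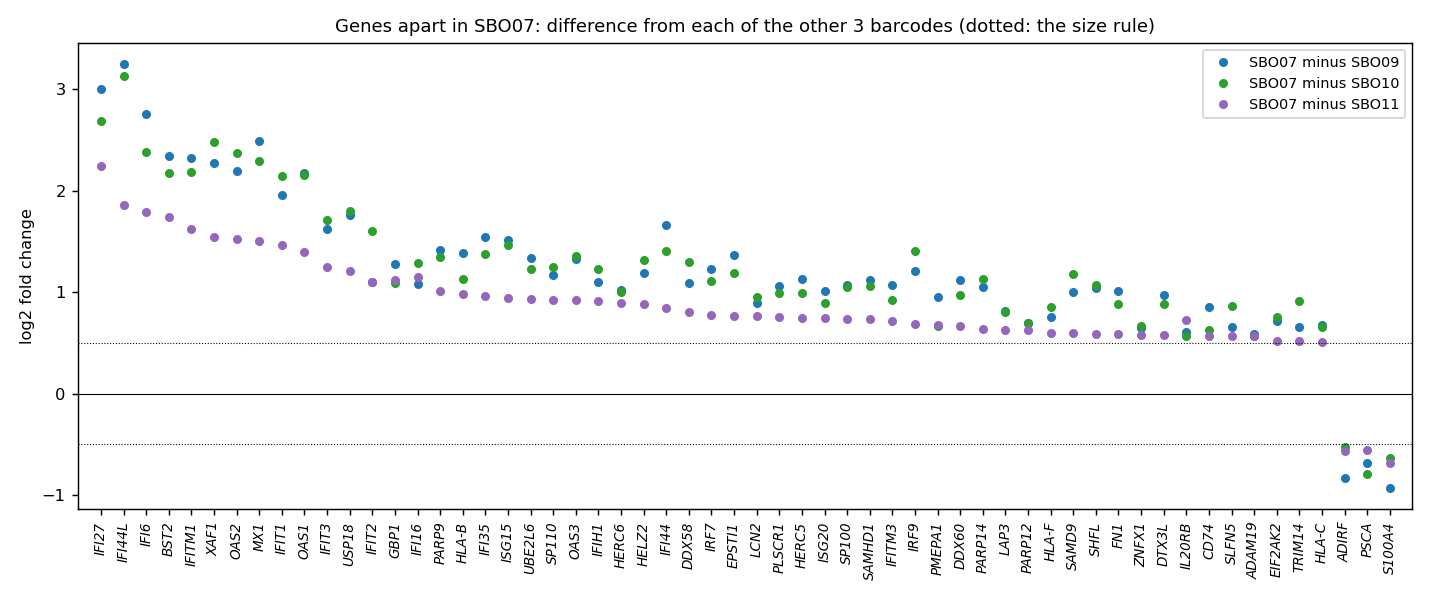
Log2 difference of SBO07 from each of SBO09, SBO10 and SBO11 for 58 genes of the stricter set, with 1 point per gene and barcode and dotted lines at 0.5 and -0.5. The difference from SBO11 is the smallest for 51 of the 55 higher genes drawn.

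The other 14 of the 57 were on none of the interferon or antigen presentation lists. Absence from these lists does not place a gene outside the interferon response, and whether the 14 respond to interferon was not tested. LCN2 (lipocalin 2, a secreted iron-siderophore trap), PMEPA1 (an inhibitor of TGF-β signalling and itself a TGF-β target) and FN1 (fibronectin) were on other lists. The remaining 11, named after their values were seen, were SP100, SAMHD1, LAP3, PARP12, SHFL, ZNFX1, IL20RB, CD74, SLFN5, ADAM19 and TRIM14. SAMHD1, which depletes deoxynucleotides, rose by 0.97, SP100, a nuclear body protein, by 0.95, and SHFL, an inhibitor of ribosomal frameshifting, by 0.90. CD74, the class II invariant chain, rose by 0.68.

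The promoters of the interferon-stimulated genes are shown for a 10-base motif of the ISRE, since most of the genes farthest apart in SBO07 hold a match to it. The motif searched was GAAANNGAAA (TTTCNNTTTC on the other strand), on both strands, from 250 bases before to 50 after each start in RefSeq's GRCh38.p14 table. It was present in 29 of 48 matched genes of the higher set (60.4%), in 30 of 40 matched effectors (75%), in 407 of 10310 matched genes tested (3.95%) and in 1195 of 27305 genes of the table (4.38%). Neither of the 2 lower genes that matched held it. These shares are descriptions of sequence, and a match is not a shown binding site. The lines that follow give 30 bases around 1 match in each of 6 genes, read 5′ to 3′ on the gene's strand, with the motif in capitals.
IFI27, chr14:94110618-94110647, plus strand: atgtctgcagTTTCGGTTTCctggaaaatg
IFI44L, chr1:78620274-78620303, plus strand: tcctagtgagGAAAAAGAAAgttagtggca
IFI6, chr1:27672329-27672358, minus strand: ggagagagggGAAAATGAAActctgcagag
BST2, chr19:17405741-17405770, minus strand: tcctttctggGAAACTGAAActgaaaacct
IFITM1, chr11:313990-314019, plus strand: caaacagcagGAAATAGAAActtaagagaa
IFIT1, chr10:89392497-89392526, plus strand: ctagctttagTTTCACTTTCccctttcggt
Of the 12 higher genes farthest from the nearest barcode, 10 matched the table and 8 of these held the motif. MX1 held it in 2 of its 3 listed promoters, and OAS1 and XAF1 held it in none of theirs.

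Genes of EMT were the study's subject, and of 12 mesenchymal genes tested 3 were higher and 2 were lower in SBO07. For these and the gene lists that follow, 4.22% of all genes were higher and 3.38% lower. FN1, the matrix protein that rises in EMT, had 1492 and 1386 CPM in SBO07, 727 and 697 in SBO09, 805 and 705 in SBO10, and 984 and 935 in SBO11 (log2 difference 0.83 ± 0.03, SE, edgeR adjusted p = 4.063e-17). SPARC, another matrix protein, rose by 0.31. TAGLN, an actin-binding protein, rose by 0.61, a call that was lost in DESeq2 and without the cell barcodes found in both libraries. TAGLN was not called against SBO09 (0.34, edgeR adjusted p = 0.1748). S100A4 fell, with 17.6 and 15.7 CPM in SBO07 and 24.2 to 33.7 CPM in the others (log2 difference -0.75 ± 0.08, SE, edgeR adjusted p = 1.929e-07). VIM, an intermediate filament protein, differed by -0.02 and was not called. ZEB1, ZEB2 and PRRX1 were too low to test.

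Of 18 TGF-β targets 5 were higher and 4 lower, with a median log2 difference of 0.09. PMEPA1 had 94.6 and 109 CPM in SBO07, 51.0 and 53.8 in SBO09, 59.3 and 64.3 in SBO10, and 61.6 and 65.9 in SBO11 (log2 difference 0.77). ID1, which blocks differentiation factors and is repressed by TGF-β in epithelia, fell by 0.67. It was not called against SBO11 (-0.35, edgeR adjusted p = 0.07262). Of 18 extracellular matrix genes 9 were higher and 2 lower by edgeR (median 0.27), and 2 were higher in DESeq2.

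Median differences of epithelial adhesion, basal (0.06) and luminal (0.02) genes were small. EdgeR called these genes and squamous genes more often than genes as a whole. Of 26 epithelial adhesion genes 3 were higher and 1 lower, with a median of -0.01, and CDH1 (E-cadherin) differed by 0.17 (edgeR adjusted p = 0.03226), a call lost in DESeq2. Of 20 basal genes 6 were higher and 1 lower (3 higher in DESeq2), and of 16 luminal genes 5 were higher and 4 lower. LCN2 had 254 and 273 CPM in SBO07, 152 and 131 in SBO09, 128 and 135 in SBO10, and 139 and 172 in SBO11 (log2 difference 0.87), and SLPI, a secreted protease inhibitor, rose by 0.47. Of 28 squamous differentiation genes 2 were higher and 7 lower than the mean, with a median of -0.17. The medians were -0.39 against SBO09, 0.01 against SBO10 and -0.04 against SBO11, with 11, 4 and 7 genes lower. KRT13, a keratin of stratified epithelia, had 79.9 and 81.2 CPM in SBO07 and 85.5 to 171 CPM in the others, but was not called against SBO10 (-0.29, edgeR adjusted p = 0.09167). The kallikreins KLK10 and KLK6 fell by 0.57 and 0.53.

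The lower side of the stricter set held 3 genes. S100A4 is described above. ADIRF, an adipogenesis regulator, had 184 and 167 CPM in SBO07, 298 and 322 in SBO09, 240.2 and 246 in SBO10, and 242 and 277 in SBO11 (log2 difference -0.64, edgeR adjusted p = 9.002e-11). PSCA, a surface antigen, had 18.2 and 21.5 CPM in SBO07 and 25.8 to 39.2 CPM in the others (log2 difference -0.67, edgeR adjusted p = 4.425e-06).

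**Figure D5:**
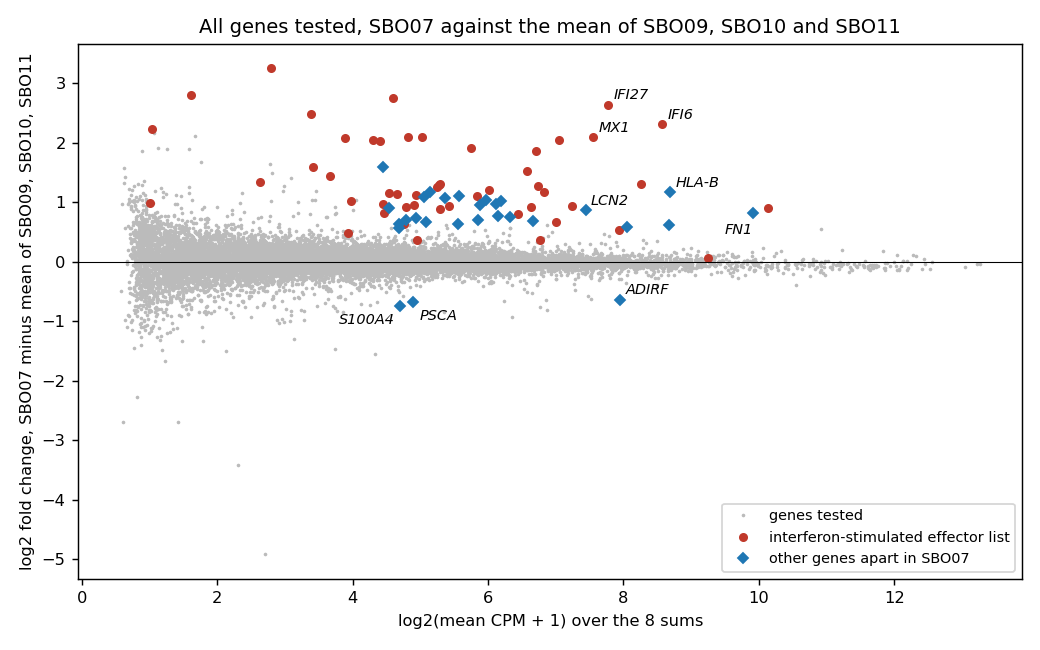
Log2 difference of SBO07 from the mean of SBO09, SBO10 and SBO11 against log2(mean CPM + 1) over the 8 sums, with 1 point per gene for the 13634 genes tested. Effectors (red circles) lie above 0, with IFI27 at 2.64 and IFI6 at 2.31, and blue diamonds mark the other genes of the stricter set.

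The immediate early genes, which respond within minutes to growth factors and to handling of cells, showed that the comparison depends on which barcode SBO07 is set against. Of 20 tested, 12 were lower and 1 was higher than the mean of the other 3 (3.38% of all genes were lower), and DESeq2 called 7 lower. FOS had 45.9 and 47.5 CPM in SBO07, 105.6 and 106.8 in SBO09, 107 and 119 in SBO10, and 55.2 and 58.6 in SBO11. The level in SBO07 was thus nearest to that in SBO11, though below it in both libraries. The log2 differences were -1.19, -1.32 and -0.28, the last called too (edgeR adjusted p = 0.02126). ATF3, a stress-induced repressor, differed by -1.34, -1.15 and -0.04. Against SBO09, 15 of the 20 were lower, against SBO10 11, and against SBO11 1 was lower and 4 were higher. KLF6 was the 1 member higher than the mean, by 0.22.

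Counts of cell cycle, stress and metabolic genes are read against 4.22% of all genes higher and 3.38% lower. Of 22 S phase genes 4 and of 24 G2/M genes 5 were lower, with medians of -0.08 and -0.06. DESeq2 called 1 and 2 of them lower. HMGB2, a chromatin protein of dividing cells, fell by 0.27 and TYMS, the thymidylate synthase, by 0.22. Of 13 genes of the mitochondrial genome 8 were lower than the mean, with a median of -0.14. Against SBO09, SBO10 and SBO11 alone, 8, 8 and 3 were lower. Their summed level in libraries 3 and 4 was 16592 and 14319 CPM in SBO07, and 16575 and 16740 CPM in SBO11. These lower levels went with the lower mitochondrial share of SBO07 cells given above. The part of that share in the result was not tested. Of 11 heat shock genes 4 were higher (1 in DESeq2), HSPB1, a small chaperone, by 0.22. Of 23 p53 targets 1 was higher and 3 were lower, the former near the share over all genes, with CDKN1A at -0.37 against the mean and -0.05 against SBO11. Of 21 G-quadruplex binding proteins edgeR called 0, with 3 at an unadjusted p under 0.05 and 0 by DESeq2. Glycolysis, cholesterol synthesis, NRF2 targets and metallothioneins had medians between -0.03 and 0.06.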

How the data were processed

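HMLE cells tagged with 12 sample barcodes were sequenced as 4 single-cell libraries, and libraries 3 and 4, which hold SBO07 to SBO12, were used. The authors deposited whole-number UMI count matrices of genes and of barcodes for each library. The submitters' processing notes name bcl2fastq 2.20.0.422, Cell Ranger 6.0.2, Seurat 4.1.0 and the build hg38, and the annotation release is not given in the sources used here. Barcode counts were centred log-ratio transformed and called with HTODemux (Seurat 5.3.0 in R 4.3.3, positive quantile 0.99) in each library alone. Cells with more than 1 called barcode were removed as doublets. Pairs of cells with the same barcode stay, as no further tool for doublets was applied.

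UMIs were summed per barcode and library and fitted with edgeR 4.0.16 (TMM, filter on low counts, quasi-likelihood test) over SBO07, SBO09, SBO10 and SBO11, which share 1 estimate of spread with 3 residual degrees of freedom. Library entered as a block because sums of one library share a channel, per the labels. Alternatives were DESeq2 1.42.0, other size factors, no low-count filter, other cell and barcode rules, and thinning. Further ones were no block, all 6 barcodes in the fit, and leaving out each barcode or library. The removal of shared cell barcodes was added after seeing the data. The fit was tested on simulated counts. The named genes were IFI27 and MX1, the 12 higher and 12 lower genes of the stricter set farthest from the nearest barcode (3 lower existed), up to 3 called members of each list with at least 20 CPM or, where none passed, 2 of highest CPM, and any member of the interferon ligand, receptor, transducer, sensor and feedback lists. Other genes named from a list are examples chosen after their values were seen. The members and the 31 lists were chosen with earlier results of these data known. Gene coordinates are from GENCODE on hg38. A few genes are not reported here.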

Additional observations from a re-analysis of the deposited data

Results flagged for a closer look

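Barcodes gave a few UMIs in libraries where they were otherwise nearly absent, in data that entered no comparison. The SBO07 barcode gave 8 UMIs in the kept cells of library 1 and 4 UMIs in those of library 2, both above the 3 UMIs that a count of 0 allows, out of 9971033 and 6176030 barcode UMIs. In library 3 and library 4 the SBO07 barcode gave 718213 and 683253 UMIs. The barcodes SBO01 to SBO06 gave 86 UMIs in the kept cells of library 3 and 8 in those of library 4. No library stood outside the other 3 in cell number, depth, barcode depth or mitochondrial share, where the widest gap was 0.717 of the range, under Dixon's 95% limit for 4 values.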

How the results depend on the processing

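Counts of genes higher and lower in SBO07 depended on the fit. Against the mean they were 164 and 158 in DESeq2, 314 and 192 without the replicate block, and 222 and 198 with thinned cells. Against SBO09 they were 170 and 113, 293 and 201, and 209 and 187 in the same order. Against SBO10 they were 153 and 231, 269 and 236, and 188 and 302, and 859 genes were lower when a cell took its top barcode by a fixed ratio. Against SBO11 they were 107 and 44, 170 and 64, and 102 and 61. The stricter set held 8 lower genes without SBO10 and 14 without SBO11, every called cell gave 44 higher and 2 lower, with 46 of 60 genes shared with the set reported, and leaving out a library gave 54 to 58 higher and 2 to 4 lower, as values with no test since no residual degrees of freedom are left.

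The number of effectors called higher was 48 of 50 in each refitted alternative other than DESeq2 (44) and thinning (46 of 48 tested), and fits without a library give no call. Some small differences changed sign. IFNL1 was -0.41 without the cell barcodes found in both libraries. IFNGR2 was -0.0069 with the top barcode rule and -0.0044 with thinned cells. IFNAR1 was -0.13 with thinned cells, -0.044 without SBO09, and 0.109 and -0.072 without library 3 and library 4. NPM1 was 0.013 without SBO10, and HNRNPA1 was 0.0001 without SBO09, 0.029 without SBO10, and -0.0477 and 0.010 without library 3 and library 4. CDH5 was 0.085 with the top barcode rule, 0.068 with every called cell and 0.24 and -0.3873 without library 3 and library 4, and FAP was -0.15 with the top barcode rule and -0.018 with thinned cells. The cause was not tested. Depth limits the ligands, with 13 UMIs of IFNB1, 3 of IFNL2 and 2 of IFNL3 in SBO07.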

Other observations

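SBO08, tagged in the same libraries and of equally unknown condition, shared much of the high interferon-stimulated expression of SBO07. It had 375 and 359 CPM of IFI27 and 315 and 288 CPM of MX1, and its cells had a median of 55 effector UMIs per 10000. For 56 of the 57 genes of the stricter set SBO08 lay above all 6 sums of SBO09, SBO10 and SBO11. The share of all tested genes for which this held was not counted. SBO07 was above SBO08 in both libraries for 48 of the 57, and below it for 3, which were FN1, PMEPA1 and ADAM19. The 57 were chosen for high levels in SBO07, and SBO08 took no part, so the choice favours SBO07 in this count. FN1 had 1724 and 1708 CPM in SBO08. IFNB1 gave 84 UMIs from 3 cells in SBO08, 47 of them in 1 cell, and IFNL1 gave 200 UMIs from 11 cells.

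SBO12 was the lowest of the 6 barcodes for IFI27, with 14.8 and 9.42 CPM, and for MX1, with 21.6 and 16.6 CPM, and its cells had a median of 16 effector UMIs. A single SBO12 cell held 7 UMIs of IFNB1.

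A few genes of large difference rest on 1 sum, and were picked after their values were seen. LCE1C, a cornified envelope gene, was at -4.92 against the mean, with 34.9 CPM in SBO09 of library 3 and 0.61 CPM in SBO09 of library 4.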
